A study of Homo sapiens with 6 samples.

Results

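The subject is the group of kinases and adaptor proteins that act closest to the T cell receptor: LCK, ZAP70, FYN, LAT, LCP2, GRAP2, PLCG1, VAV1 and TRAT1. They were taken as a list of 9 gene symbols, each represented by its brightest probe set on average over the 6 arrays. Of the 9, 8 were measured among 17687 genes with a symbol, each by 1 probe set. No probe set was paired with GRAP2 in the gene table used here, so GRAP2 was not analysed here. The cells were Jurkat cells, a single leukaemic T cell line. In the 3D group (3 arrays), the cells were mixed into bovine type I collagen at 1.7 mg/mL, neutralised with sodium bicarbonate and Hepes, which set for 1 h and was then covered with warm medium for 2 h. In the suspension group (3 arrays), the cells stayed in suspension for the same 3 h. Both groups were kept in RPMI medium with 10% FBS. The titles call the arrays of each group biological replicates numbered 1 to 3 and do not say what separates them, so that a p-value measures the spread between these samples, which may be partly technical.

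When the T cell receptor binds its ligand, LCK, a SRC family kinase, phosphorylates the signalling motifs of the receptor's CD3 and zeta chains, and FYN, a kinase of the same family, can do so as well. ZAP70 docks on the phosphorylated motifs and phosphorylates LAT, an adaptor anchored in the plasma membrane, and LCP2, a cytosolic adaptor also called SLP76. GRAP2, also called GADS, joins LCP2 to LAT, and the assembled complex holds PLCG1, a phospholipase that makes the second messengers behind calcium release and protein kinase C activation, and VAV1, a guanine nucleotide exchange factor. TRAT1 is a membrane adaptor that associates with the receptor complex. These steps are set by phosphorylation and recruitment, whereas the arrays measured messenger RNA alone.

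Levels are the log2 values of the RMA method as deposited, so that 1 unit is a doubling. The median of the 21448 probe sets was 5.55 to 5.64 per array. A principal component analysis placed 42.8% of the variance on its first axis, with 3D replicate 3 at one end (score 29.2) and suspension replicate 1 at the other (score -40.4). Results that rest on either of these arrays are given without it. The axis did not separate the groups. Both arrays of number 1 had negative scores, with 3D replicate 1 at -14.2, and all others had positive scores. These were 14.7 for 3D replicate 2, and 4.9 and 5.9 for suspension replicates 2 and 3. Of 12 T cell markers 11 were measured. All 11 had a mean at or above 6, and their mean level per array ran from 8.78 to 9.15 in 3D and from 9.02 to 9.19 in suspension. The 28 measured markers of B, myeloid, NK, stromal and erythroid cells averaged 4.45 to 4.58 per array in 3D and 4.48 to 4.74 in suspension, and 5 of the 28 (CD79A, FCRLA, NKG7, COL1A2 and HBA1) had a mean at or above 6. The median log2 difference, 3D minus suspension, was -0.21 over the T cell markers and -0.06 over the markers of other cell types, and their part in the results below was not tested. Probe sets differ in how strongly they bind, so levels of different genes are not ranked against each other below.

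None of the 8 measured genes passed the comparison of 3D with suspension in limma with Benjamini-Hochberg adjustment over 17687 genes at a threshold of 0.05, a test that called 0.0% of all genes. Their adjusted p-values ran from 0.399 for LCP2 to 0.912 for PLCG1. At an unadjusted p under 0.05 there was 1 of the 8, LCP2, against 9.87% of all genes in either direction. Of the 8 means 7 were lower in 3D, and 1, that of TRAT1, was higher, where 52.6% of all genes had a lower mean in 3D. The median log2 difference of the 8 genes was -0.16, beside -0.02 over all genes. The mean level of the 8 genes was 8.88, 8.76 and 8.62 in 3D replicates 1, 2 and 3, against 8.96, 8.93 and 8.90 in the suspension replicates of the same numbers. The groups did not overlap for 1 of the 8 genes, or 12.5%, against 16.3% of all genes, so this share is near that of all genes. Fewer transcripts per cell and a smaller share of cells with the transcript cannot be told apart in such bulk samples.

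**Figure D1:**
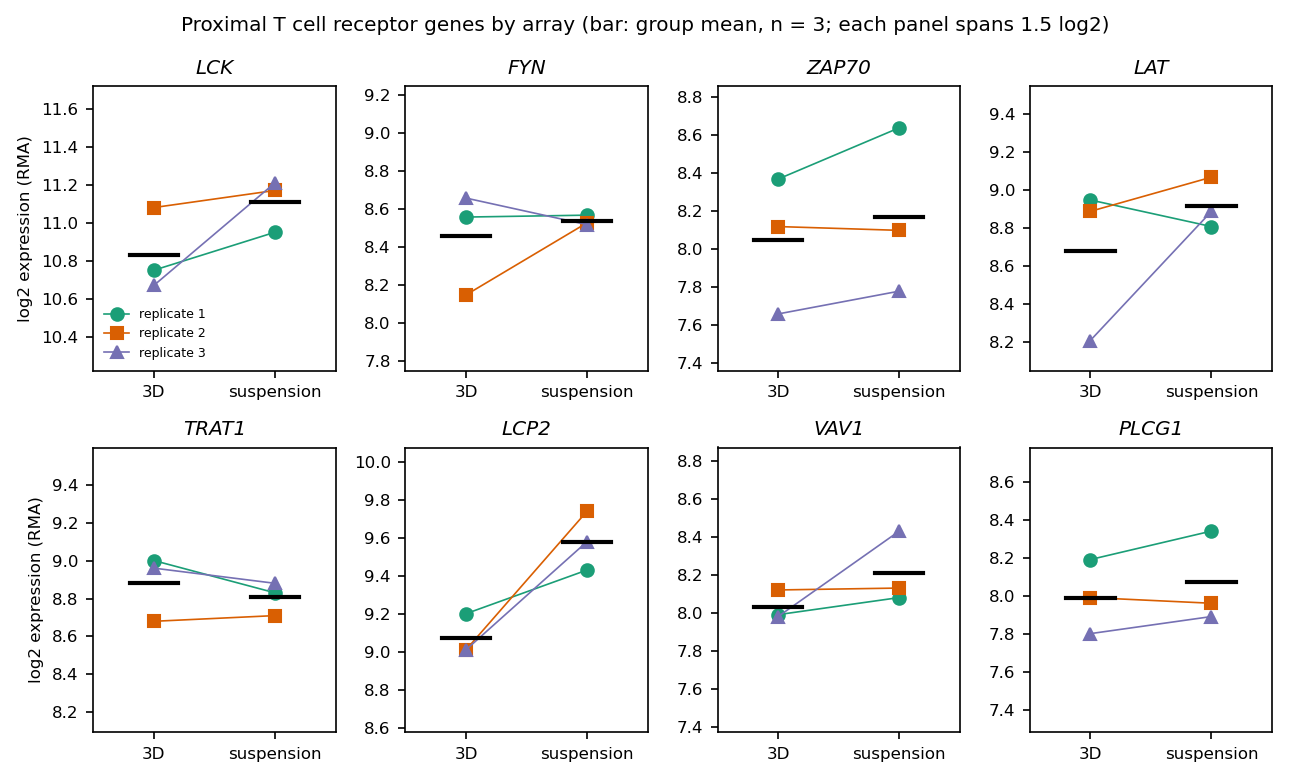
Log2 expression (vertical axis, RMA values) of the 8 measured genes in 3D and suspension (horizontal axis), 1 point per array, with lines joining arrays of the same replicate number and black bars at the group means (n = 3). LCP2 has all 3 values of 3D (9.01 to 9.20) below all 3 of suspension (9.43 to 9.74), ZAP70 separates by replicate number, and in LAT the value of 3D replicate 3 (8.21) stands below the other 5.

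Among the kinases, LCK was lower in 3D than in suspension in each of the 3 replicate numbers, but did not pass. LCK measured 10.75, 11.08 and 10.67 in 3D, against 10.95, 11.17 and 11.21 in suspension. The groups overlapped, since 3D replicate 2 lay above suspension replicate 1. The log2 difference was -0.28 ± 0.17 (SE; limma adjusted p 0.605), with a 95% confidence interval from -0.66 to 0.10. With any 1 array left out it ran from -0.40 to -0.19, the value without 3D replicate 3. FYN measured 8.56, 8.15 and 8.66 in 3D, against 8.57, 8.53 and 8.52 in suspension. The 3 suspension values of FYN were close together (SD 0.03), those of 3D were spread wider (SD 0.27), and 3D replicate 2 alone was lower than all others. Its log2 difference was -0.08 ± 0.17 (SE; limma adjusted p 0.891) and turned to 0.07 without 3D replicate 2. ZAP70 measured 8.37, 8.12 and 7.66 in 3D, against 8.64, 8.10 and 7.78 in suspension. The groups overlapped, and the means of numbers 1, 2 and 3 over both groups, 8.50, 8.11 and 7.72, spanned 0.78. The difference between the groups was smaller, at -0.12 ± 0.25 (SE; limma adjusted p 0.889), and it turned to 0.07 without 3D replicate 3 and to 0.11 without suspension replicate 1.

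The membrane adaptors LAT and TRAT1 did not pass either. LAT measured 8.95, 8.89 and 8.21 in 3D, against 8.81, 9.07 and 8.89 in suspension. A single array, 3D replicate 3, was lower than the other 5, while 3D replicates 1 and 2 lay within the suspension range. The log2 difference of LAT was -0.24 ± 0.21 (SE; limma adjusted p 0.713), and it was -0.01 without 3D replicate 3. TRAT1 measured 9.0, 8.68 and 8.96 in 3D, against 8.83, 8.71 and 8.88 in suspension. It was the 1 gene of the 8 with a higher mean in 3D, and the groups overlapped. Its log2 difference was 0.08 ± 0.16 (SE; limma adjusted p 0.893), with a 95% confidence interval from -0.28 to 0.43, and it stayed between 0.02 and 0.18 with any 1 array left out.

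LCP2, the scaffold on which VAV1, PLCG1 and the GRAP2 bridge to LAT assemble, had the largest difference of the 8 genes. LCP2 measured 9.20, 9.01 and 9.01 in 3D, against 9.43, 9.74 and 9.58 in suspension. All 3 values of 3D lay below all 3 of suspension, as they did for 8.03% of all genes, and the replicates within each group lay close together, with means of 9.07 ± 0.11 in 3D and 9.58 ± 0.16 in suspension (SD, n = 3 each). The log2 difference was -0.51 ± 0.16 (SE), a ratio of 0.701 of 3D over suspension, with a 95% confidence interval from -0.87 to -0.16. It did not pass over all genes (limma, unadjusted p 0.00891, adjusted p 0.399). Permuting the group labels exactly (two-sided) gave p = 0.1, which is the minimum for groups of 3. The difference was -0.23, -0.73 and -0.57 in replicate numbers 1, 2 and 3, and ran from -0.59 to -0.43 with any 1 array left out. Fitted with a block for the replicate number, LCP2 had a limma adjusted p of 0.142, where 0.0905% of all genes passed. With this block and only the 8342 genes of mean at or above 6, LCP2 passed as lower in 3D (limma adjusted p 0.0166), in a setting where 3.78% of genes passed as lower and 10.6% as higher. In that setting the adjusted p of LCP2 was 0.0199 without pair 1, 0.0754 without pair 2 and 0.123 without pair 3. Here and below, the fit with block, filter and all 3 pairs had 2 residual and 25 prior degrees of freedom. Fits of this kind without a pair had 1 residual degree of freedom and 43 or infinite prior degrees of freedom. The spread came mostly from all genes tested with all 3 pairs, and almost wholly so without a pair. These p-values therefore say little of the spread between a gene's own replicates. With the block, the filter and all 3 pairs, the other 7 genes did not pass, with adjusted p from 0.175 for LCK to 0.746 for PLCG1.

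The stretches of 250 bases before the annotated starts of LCP2, LCK and VAV1 are shown because they share an 8-base word, AGGAAGTG, a form of the core recognised by ETS transcription factors, and that of TRAT1 is shown as an example of the 5 genes that lack it in every window of the table (ZAP70, FYN, LAT, PLCG1 and TRAT1). The sequences are those of RefSeq on GRCh38.p14, written 5′ to 3′ on the strand of the gene, with the word in capitals. That of LCP2 lies at chr5:170297778-170298027 (minus strand), that of LCK at chr1:32273871-32274120 (plus strand), that of VAV1 at chr19:6772458-6772707 (plus strand) and that of TRAT1 at chr3:108822536-108822785 (plus strand).
LCP2: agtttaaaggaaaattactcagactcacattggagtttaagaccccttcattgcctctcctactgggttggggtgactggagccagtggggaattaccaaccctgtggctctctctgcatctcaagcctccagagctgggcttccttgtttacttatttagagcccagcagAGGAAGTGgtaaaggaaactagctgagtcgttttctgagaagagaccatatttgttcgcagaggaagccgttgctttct
LCK: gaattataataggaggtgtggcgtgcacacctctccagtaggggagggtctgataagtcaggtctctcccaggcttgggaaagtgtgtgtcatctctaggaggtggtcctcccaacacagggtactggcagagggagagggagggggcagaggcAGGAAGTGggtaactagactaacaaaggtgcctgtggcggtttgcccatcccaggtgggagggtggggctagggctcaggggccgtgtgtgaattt
VAV1: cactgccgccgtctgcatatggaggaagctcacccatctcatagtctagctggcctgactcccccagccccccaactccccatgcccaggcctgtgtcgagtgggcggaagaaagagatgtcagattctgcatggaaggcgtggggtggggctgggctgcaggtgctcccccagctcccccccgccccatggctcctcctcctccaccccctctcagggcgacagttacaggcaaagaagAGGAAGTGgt
TRAT1: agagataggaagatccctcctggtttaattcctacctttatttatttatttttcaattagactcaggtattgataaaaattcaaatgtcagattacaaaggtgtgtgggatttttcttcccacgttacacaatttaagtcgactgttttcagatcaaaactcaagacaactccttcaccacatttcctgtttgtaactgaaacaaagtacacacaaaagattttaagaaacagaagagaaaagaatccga

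The word was picked after the sequences had been read, so its count is a description. Searched on both strands, AGGAAGTG began 79 bases before the start of LCP2, 96 before that of LCK and 10 before that of VAV1. LCK has another annotated start, at whose window the word did not match. Of the 9 genes 4 had a match in at least 1 of their windows, the fourth being GRAP2, which was not measured, and over all genes with a window in the table the share was 3.72%. Among the 7 genes with a lower mean in 3D, 3 had the word (LCP2, LCK and VAV1) and 4 lacked it (ZAP70, FYN, LAT and PLCG1), and TRAT1, with a higher mean, lacked it too. A match is not evidence of a bound site, and no binding was measured here. TGTGGT, a RUNX word, was matched in 2 of the 9 genes, LCK and TRAT1, against 13.2% of all genes. In FYN alone a GATA factor word was matched, AGATAA, against 11.1% of all genes. These 9 genes had 17 windows, against 35116 for 27305 genes, so they had more windows each in which a word could match.

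VAV1 and PLCG1, the exchange factor and the phospholipase held by the scaffold, had groups that overlapped. VAV1 measured 7.99, 8.12 and 7.98 in 3D, against 8.08, 8.13 and 8.43 in suspension. Suspension replicate 3 was higher than the other 5 arrays. Its log2 difference was -0.19 ± 0.16 (SE; limma adjusted p 0.712), and -0.08 without suspension replicate 3. PLCG1 measured 8.19, 7.99 and 7.80 in 3D, against 8.34, 7.96 and 7.89 in suspension. As for ZAP70, the means of numbers 1, 2 and 3 over both groups, 8.27, 7.98 and 7.84, were further apart than the groups, with a span of 0.42. The log2 difference of PLCG1 was -0.07 ± 0.18 (SE; limma adjusted p 0.912), and it turned to 0.07 without suspension replicate 1 and to 0.03 without 3D replicate 3.

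**Figure D2:**
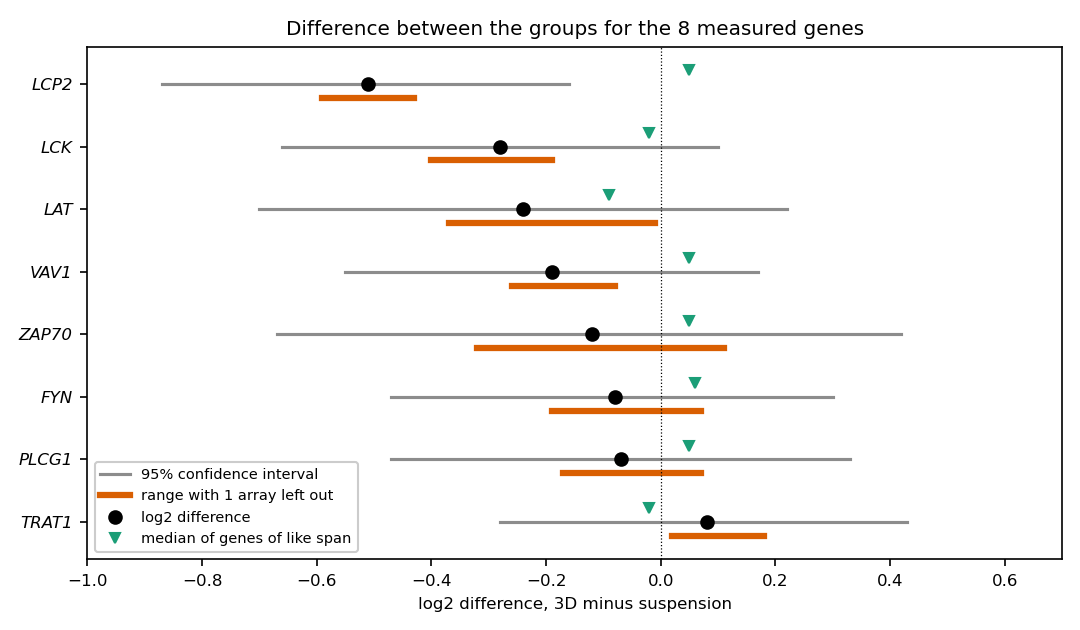
Log2 difference, 3D minus suspension (horizontal axis), for each of the 8 measured genes (vertical axis): black points are the differences of limma, grey lines their 95% confidence intervals, orange lines the range with any 1 array left out, and green triangles the median difference of all genes in the same quintile of gene span. The interval of LCP2 (-0.87 to -0.16) lies below 0 and those of the other 7 genes include 0.

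The intervals bound what these arrays could show. Apart from LCP2, the lowest bound was -0.70, for LAT, and the highest was 0.43, for TRAT1, so the data left room for changes of either sign in these 7 genes and a p above the threshold does not show that they were equal. The spread between replicate numbers exceeded the difference between the groups in 6 of the 8 genes, or 75.0%, against 72.6% of all genes, and the exceptions were LCP2 and VAV1. LCK lay at the border, since its spread and its difference were both 0.28 in size. Of the 8 genes 3 (LCK, LCP2 and VAV1) were lower in 3D in all 3 replicate numbers, or 37.5%, against 19.8% of all genes, and 0 were higher in all 3, against 20.3% of all genes. The share lower in all 3 was higher among receptor chains and coreceptors (5 of 10 genes, 50.0%) than among the 8 genes. So it was among negative regulators (9 of 17, 52.9%) and T cell markers (5 of 11, 45.5%). Receptor chains and T cell markers have genes in common, among them CD3D, CD3E, CD247 and CD5. That share was below the one of the 8 genes among paralogues (5 of 18, 27.8%) and downstream genes (5 of 24, 20.8%). It was also below among activators and carriers of LCK and FYN (1 of 8, 12.5%) and TEC kinases (0 of 3, 0.0%). These lists are small, and the order of their shares was not tested. The median difference of the 8 genes was -0.12 in replicate number 1, -0.06 in number 2 and -0.29 in number 3. With 3D replicate 3 left out, the median over the 8 genes was -0.08, and with both 3D replicate 3 and suspension replicate 1 left out, a setting chosen after seeing the data, it was -0.12, with 5 genes lower and 3 higher. In that setting LCP2 stood at -0.56 (limma adjusted p 0.51).

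Across the array, short genes tended to lower and long genes to higher values in 3D, so each gene was set beside genes of like span, in quintiles. LCP2 spans 51.5 kb and has 16 neighbours within 500 kb, in the quintile with the fewest (median log2 difference 0.07). ZAP70, PLCG1 and VAV1 fall in the same quintile of span as LCP2, whose median log2 difference was 0.05. LCK and TRAT1 fall in the middle quintile, with a median of -0.02. LAT, the shortest at 5.98 kb, falls in the quintile of shortest genes, with a median of -0.09, and has 55 neighbours in the same distance, in the quintile with the most neighbours (median -0.11). FYN, the longest at 213 kb, falls in the quintile of longest genes (median 0.06). VAV1 lies on chromosome 19, whose 1256 genes had a median of -0.13. A linear trend on span and neighbours was then taken out of each array. The log2 difference became -0.58 for LCP2, -0.28 for LCK, -0.20 for VAV1 and -0.17 for FYN. It became -0.16 for ZAP70, -0.15 for LAT, -0.11 for PLCG1 and 0.03 for TRAT1. None of the 8 passed there (limma adjusted p 0.49 for LCP2).

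The paralogues of these genes and the membrane adaptors SIT1, LAX1 and PAG1 were compared as a list of 19, called paralogues here, of which 18 were measured. None passed (limma adjusted p 0.399 to 0.959), 1 was higher and 0 were lower at an unadjusted p under 0.05, and the median log2 difference was -0.14, with 8 higher and 10 lower in 3D. YES1, a broadly expressed SRC family kinase, measured 7.88, 8.06 and 8.32 in 3D, against 7.43, 7.46 and 7.71 in suspension. All 3 values of 3D lay above those of suspension, and the difference was 0.55 ± 0.17 (SE; limma adjusted p 0.399). With the block and the filter on the mean it passed as higher (adjusted p 0.00867), but not without pair 3 (0.0858). FRK, another kinase related to SRC, measured 4.42, 4.16 and 4.19 in 3D, against 3.76, 4.10 and 3.89 in suspension, also without overlap, with a difference of 0.34 ± 0.17 (SE; limma adjusted p 0.523). Of the other SRC family kinases measured, FGR had 0.05, SRC -0.24, BLK -0.30 and LYN -0.30, so the means of the family lay on both sides of 0. GRB2, the ubiquitous relative of GRAP2, measured 10.11, 10.02 and 10.11 in 3D, against 10.34, 10.26 and 10.33 in suspension. Its groups did not overlap, yet the difference of -0.23 ± 0.15 (SE) did not pass (limma adjusted p 0.618). GRAP, another relative of GRAP2, had a log2 difference of -0.38 ± 0.18 (SE; limma adjusted p 0.519), and SIT1, a membrane adaptor of lymphocytes, had -0.37 ± 0.17 (adjusted p 0.517). SYK, the relative of ZAP70 that serves B cells, measured 5.65 to 5.95 in 3D and 5.86 to 6.21 in suspension, with a difference of -0.19 ± 0.17 (adjusted p 0.717). BLNK, the B cell counterpart of LCP2, measured 3.19 to 3.54 in 3D and 2.95 to 3.49 in suspension.

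Genes next to the group in the pathway were described by list, and 0 genes of any of these lists passed over all genes in limma. At an unadjusted p under 0.05, limma had 0 higher and 1 lower in 3D among receptor chains and coreceptors, 3 higher and 1 lower among downstream genes, 1 higher and 1 lower among negative regulators, 1 higher and 0 lower among activators and carriers of LCK and FYN, and 0 among TEC kinases. Over all genes there were 1043 higher and 702 lower of 17687, the 9.87% in either direction given above. The receptor chains and coreceptors (10 of 10 measured) had a median log2 difference of -0.17, with 3 higher and 7 lower in 3D. CD247, the zeta chain on which ZAP70 docks, measured 8.02, 7.89 and 7.83 in 3D, against 8.40, 8.50 and 8.39 in suspension. Its groups did not overlap, and its log2 difference of -0.52 ± 0.15 (SE; limma adjusted p 0.380) was about that of LCP2. CD3D had -0.31 ± 0.16, CD5, an inhibitory surface receptor, -0.30 ± 0.16, and CD4, the coreceptor that carries LCK, -0.24 ± 0.20 (SE; limma adjusted p 0.546 to 0.702). With the block and the filter on the mean, CD247 was the 1 gene of this list that passed (adjusted p 0.0133), and it did not without pair 3 (0.11).

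Downstream adaptors and effectors (24 of 25 measured) had a median log2 difference of 0.04, with 13 higher and 11 lower. SOS2 and SOS1, exchange factors for RAS that are recruited through GRB2, had differences of 0.53 ± 0.17 and 0.37 ± 0.15 (SE), and NCK1, an adaptor that binds LCP2, had 0.38 ± 0.16. All 3 had groups that did not overlap, as had 16.7% of this list and 16.3% of all genes. None of the 3 passed (limma adjusted p 0.399 to 0.496). PIK3CD, the delta catalytic subunit of phosphatidylinositol 3-kinase, measured 6.11, 6.68 and 6.38 in 3D, against 7.22, 7.01 and 6.78 in suspension. Its difference of -0.61 ± 0.19 (SE; limma adjusted p 0.399) passed with the block and the filter on the mean (adjusted p 0.0089), though not without pair 1 (0.196).

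Negative regulators (17 of 19 measured) had a median log2 difference of -0.20, with 4 higher and 13 lower. PTPN22, a phosphatase that acts on LCK and ZAP70, measured 7.83, 8.09 and 8.11 in 3D, against 7.11, 7.25 and 7.69 in suspension. All 3 values of 3D lay above those of suspension, with a difference of 0.66 ± 0.19 (SE; limma adjusted p 0.380). CD6 had -0.44 ± 0.19, DOK2, a docking protein that recruits a GTPase-activating protein of RAS, -0.39 ± 0.18, and PTPN2, a phosphatase of SRC family kinases, 0.29 ± 0.16 (limma adjusted p 0.496 to 0.563). With the block and the filter on the mean, PTPN22 passed as higher (adjusted p 0.00346) and CD6 as lower (0.0435). Without any 1 pair PTPN22 still passed there (0.00543 to 0.0275), while CD6 did not without pair 1 (0.16) or pair 3 (0.469). The fits without a pair again took almost all of their spread from all genes tested.

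Genes that activate LCK and FYN or bring them to the membrane (8 of 9 measured) had a median log2 difference of 0.07, with 6 higher and 2 lower. ZDHHC21, an acyltransferase that palmitoylates SRC family kinases, measured 6.92, 6.78 and 6.65 in 3D, against 6.02, 5.98 and 6.23 in suspension. Its groups did not overlap, and its difference of 0.71 ± 0.16 (SE) had the smallest p of all genes in these lists without passing (limma, unadjusted p 0.00111, adjusted p 0.347). It passed as higher with the block and the filter on the mean (adjusted p 0.0024), also without any 1 pair (0.00189 to 0.0301). As above, the spread in fits without a pair came almost wholly from all genes tested. HSP90AA1, a chaperone of LCK among many client proteins, had 0.35 ± 0.16, and NMT2, which attaches the myristoyl anchor, had 0.36 ± 0.18 (limma adjusted p 0.513 and 0.537). UNC119 went the other way, with -0.24 ± 0.21 (SE; limma adjusted p 0.714), and was lower in 3D in every replicate number. PTPRC, the phosphatase CD45 that keeps LCK active, measured 10.93 to 11.25 in 3D and 10.90 to 11.26 in suspension, with a difference of 0.10 ± 0.17 (adjusted p 0.870). Of the TEC kinases 3 of 5 were measured, with a median of 0.07, and BTK, TEC and TXK had adjusted p from 0.626 to 0.940.

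**Figure D3:**
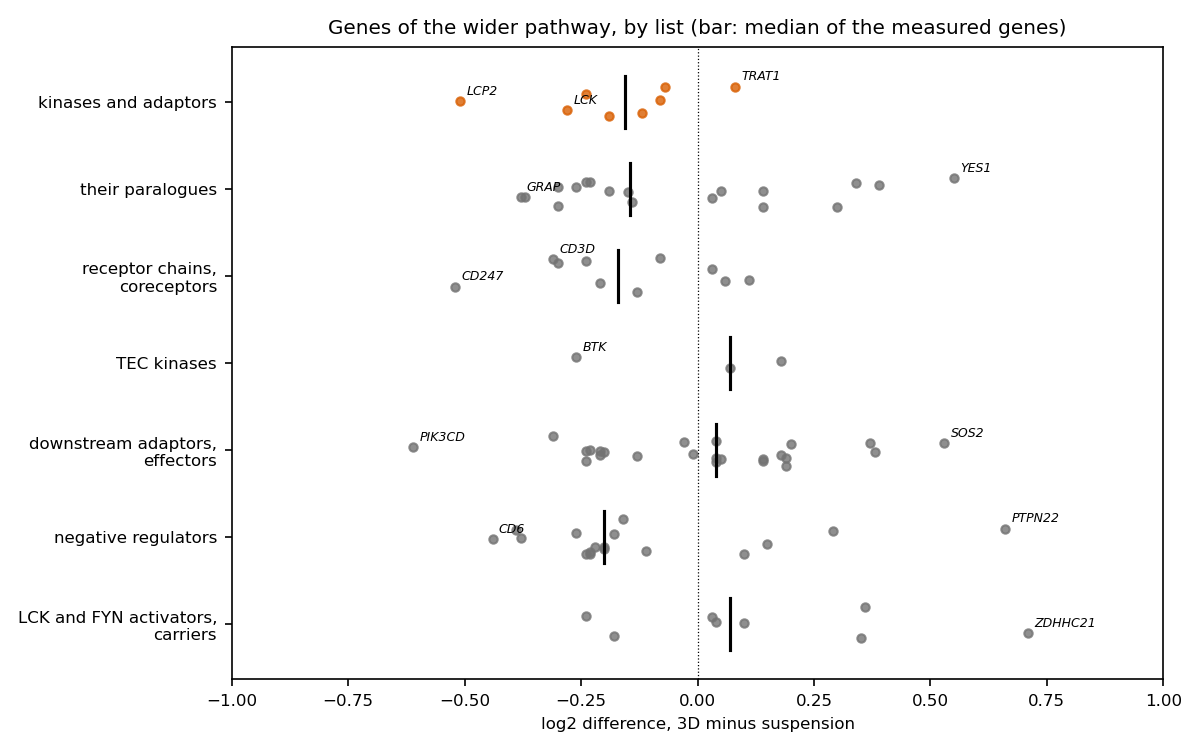
Log2 difference, 3D minus suspension (horizontal axis), of every measured gene in the 8 kinases and adaptors (orange) and in 6 lists of related genes (grey), 1 row per list with vertical jitter and a black bar at the list's median. The medians run from -0.20 for negative regulators to 0.07 for TEC kinases and for activators and carriers of LCK and FYN, and no gene shown passed over all genes.

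Profiles most like those of single genes were sought among the other 17686 genes, by the root mean square distance over the 6 arrays after subtracting each gene's mean. This was done for the gene of smallest p in each direction. Nearest to LCP2 were CFAP157 (distance 0.0376 log2), HLA-C (0.0430), the heavy chain gene of a classical MHC class I molecule, and UNC45A (0.0587), which encodes a chaperone of myosin. HLA-C measured 7.32, 7.22 and 7.09 in 3D, against 7.62, 7.90 and 7.75 in suspension, so that like LCP2 it was highest in suspension replicate 2. Nearest to TRAT1 were NUFIP1 (0.0200), COPB2 (0.0285) and PUDP (0.0364). These distances rest on 6 arrays and are given as a description.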

How the data were processed

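Each of the 6 arrays gave 1 column of log2 expression per probe set, deposited by the authors. RMA and the Transcriptome Analysis Console made these log2 values, per the submitters' processing notes, with no version. The genome build is not given in the sources used here. Background subtraction and the common distribution imposed by RMA can shrink differences of dim probe sets, which was not tested here. There were 0 further columns of samples. Precision is limited by the 3 arrays per group.

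Of 21448 probe sets, 17709 had 1 gene symbol in the platform's table, 0 had several and 3739 had none. All 17709 matched the RefSeq table of GRCh38.p14 by gene identifier. For the 20 genes with over 1 probe set the one of highest mean was kept, which left 17687 genes. Genes were tested with limma 3.58.1 under R 4.3.3 (functions lmFit and eBayes, without a block, two-sided), adjusted over all genes at 0.05, with 4 residual and 6.79 prior degrees of freedom. It was checked on simulated data. Plots used matplotlib 3.10.9.

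Groups and replicate numbers came from the titles. Deviations from the group means correlated between arrays of one number at 0.521, 0.120 and 0.337 (numbers 1, 2 and 3). All exceed 0.1, so by rule the numbers count as pairs. Yet suspension replicate 2 correlated at 0.230 with 3D replicate 3, and 3D replicate 2 at 0.149 with suspension replicate 3. The main test had no block, and fits with the block are given as alternatives. The genes, the lists, the rule for named genes (all 9 genes; of each list those past the threshold or up to 4 of smallest p; any paralogue; the 3 nearest profiles) and the alternatives were chosen with earlier results of these data known. PTPRC, outside that rule, was named after its values were seen. Alternatives were the block, quantile normalization, a filter on the mean, other models of the spread, array weights, other choices of probe set, removal of span trends and leaving arrays out.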

Additional observations from a re-analysis of the deposited data

How the results depend on the processing

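None of the 8 genes passed in any of 23 alternatives except LCP2, which passed in 2, both with the replicate block and a mean at or above 6. LCP2 kept a lower mean in 3D in all 23, from -0.65 to -0.40 (adjusted p 0.0166 to 0.806), as did LCK (-0.40 to -0.14), LAT (-0.43 to -0.01) and VAV1 (-0.28 to -0.05), and TRAT1 kept a higher one (0.01 to 0.18). ZAP70 turned to 0.01 with array weights and, with both arrays at the ends of the first principal component left out, ZAP70 turned to 0.31 and PLCG1 to 0.17. With any 1 array left out, ZAP70 ran from -0.32 to 0.11, PLCG1 from -0.17 to 0.07 and FYN from -0.19 to 0.07. With the replicate block and pair 2 left out, with or without the filter on the mean, FYN stood at 0.06. The median of the 8 genes stayed between -0.23 and -0.08. The block on all pairs, the filter, other models of the spread and other choices of probe set could not change these 8 differences. The filter also left the differences without a pair as they were. A sign kept in all 23 is therefore not the outcome of 23 separate checks.

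The replicate block raised the genes called from 0 to 16 and, with a mean at or above 6, to 1199. With the block and that filter, 10.6% of the 8342 genes were called higher and 3.78% lower. The genes called were 1 of the 8 kinases and adaptors, 1 of 10 paralogues and 1 of 8 receptor chains and coreceptors. They were also 1 of 21 downstream genes, 2 of 17 negative regulators and 1 of 8 activators and carriers. The block alone called 0 in each of these lists. With any 1 array left out and no block, 0 genes were called. With the block, 21, 150 and 36 of 17687 genes were called without pairs 1, 2 and 3, and with the block and the filter 458, 1457 and 406 of 8342. In the same 3 settings with block and filter, the count ran from 0 to 1 for the kinases and adaptors, from 0 to 3 for paralogues, from 0 to 1 for receptor chains, from 0 to 2 for downstream genes and from 1 to 4 for negative regulators, and it was 1 for activators and carriers. The TEC kinases had 0 throughout, and none could be tested at a mean at or above 6. The causes of these shifts were not tested, and the number of arrays limits all of them.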
